A study of Oryza sativa with 2 samples.

Results

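The sites described here are cut positions on rice transcripts that were paired in the deposited table only with precursor-arm small RNAs. These are small RNAs read from the 3′ or 5′ arm (p3 or p5) of a known microRNA hairpin, under a name other than that of a listed mature microRNA (miRNA). A site is 1 transcript and 1 cleavage position with reads. It was a member when every paired small RNA name held capital MIR with -p3 or -p5, other than osa-MIR5826-p5 and osa-MIR396h-p5_1ss16GA. Transcripts with a symbol starting ARF, SPL, GRF, NAC, NFYA or HOX, or equal to AP2, SCL6, GAM1 or HMG3, were left out. The rule used names and symbols but no measured level, and it found 554 of 2064 sites, on 418 of 1730 transcripts from 204 of 823 genes. The members rested on 850 of the 3262 pairs with reads.

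The study profiled mesocotyls, the stem-like organ that lifts a grass shoot through the soil, of the indica rice cultivar P25. The light library (L_1h) came from seedlings raised in the dark for 5 days on Murashige and Skoog medium and then given 1 h of light. The dark library (D_5d) came from seedlings of the same age kept in the dark. Each condition had 1 library, so no difference has a replicate check, no test between conditions was made, and the libraries rather than the conditions are compared. The sources used here do not give the number of seedlings in each library.

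In degradome sequencing, uncapped RNA fragments are captured and each read starts at the 5′ end of one, so a cut gives reads that start at 1 position. A miRNA precursor folds into a hairpin, from which an enzyme of the Dicer family cuts a duplex of a mature miRNA and its partner strand. The mature strand is loaded into an Argonaute protein that, in plants, cuts well-paired transcripts opposite the middle of the small RNA, while the partner strand is usually degraded. Fragments from the rest of a hairpin can also be sequenced. Some rice hairpins of families found in few plants lie in short inverted-repeat DNA elements.

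The members were paired with 92 small RNA names, which stood for 77 distinct sequences from 38 hairpin families. Of the sequences 42 were from the p3 arm, with sites in 128 genes, and 35 from the p5 arm, with sites in 93 genes. The suffix ss, which in these names comes before a position and a pair of bases, stood on 49 of the 92 names. Names with the prefix of another species numbered 5, with sites in 8 genes. The 9 sequences below, which had member sites in the most genes, are printed 5′ to 3′ with the seed (bases 2 to 8) in capitals, and 1 name is given where several share a sequence.
osa-MIR6253-p3_1ss18AT: aTCATTTTcctctcattt
osa-MIR818e-p3_1ss16AG: aAATTTTTtgaataagacgagtgg
osa-MIR812r-p5_1ss2CT: aTGTTTGAccgttcgtcttatt
osa-MIR6255-p3: aTCATTTTtcccacatgt
osa-MIR812a-p3_1ss15TC: aTAAGACGgacggtcaaacgttgg
osa-MIR812r-p3: aAATAAGAcggacggtcaaacgtt
osa-MIR818e-p5_1ss11CT: tGTTTGACcattcgtcttatt
osa-MIR812c-p5_1ss12CT: tGTTTGACcgttcatcttattt
osa-MIR818f-p3_1ss15TC: aTAAGACGagtggtcaaacagtgc
These sequences had sites in 22, 19, 16, 13, 11, 11, 11, 10 and 10 genes, in the order printed. The seed TAAGACG was shared by 4 sequences of the MIR5799, MIR812 and MIR818 families, with sites in 19 genes. The seed TCATTTT joined MIR6253 and MIR6255, with sites in 35 genes, and GTTTGAC joined a MIR812 and a MIR818 p5 arm, with sites in 11 genes. Small RNAs with 1 seed often shared sites, so these gene counts overlap.

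The arms differed in length from the mature miRNAs that had reads. Of the 77 sequences 22 (28.6%) were 24 bases long and 23 (29.9%) were 21 bases long, against 7 (4.79%) and 87 (59.6%) of 146 mature sequences with reads. A length of 21 bases is typical of plant miRNAs, and 24 bases of small RNAs that guide DNA methylation. Of the 77 sequences 6 shared a run of 15 bases or more with a listed mature miRNA, and these had sites in 18 genes. Among them osa-MIR156a-p3 shared all of its 20 bases, so the name does not always mark a sequence apart from the mature one.

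MIR812 and MIR818 were the families with most member genes. MIR812 arms, of 24 names and 18 sequences, had 148 sites in 42 genes, and MIR818 arms had 91 sites in 37 genes. MIR6253 followed with 54 sites in 25 genes, MIR6255 with 31 sites in 13 genes and MIR169 with 40 sites in 11 genes. Families kept across many plants numbered 7 of the 38, with sites in 30 genes, while the other 31 families had sites in 174 genes. At 20 sites with a MIR812 arm and 13 with a MIR818 arm the best-paired arm reached perfect pairing, an alignment score of 0. That arm can be of another family, since a site paired with arms of several families counts in each. The score is a mispairing penalty that ran from 0 to 4 in the deposited table.

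**Figure D1:**
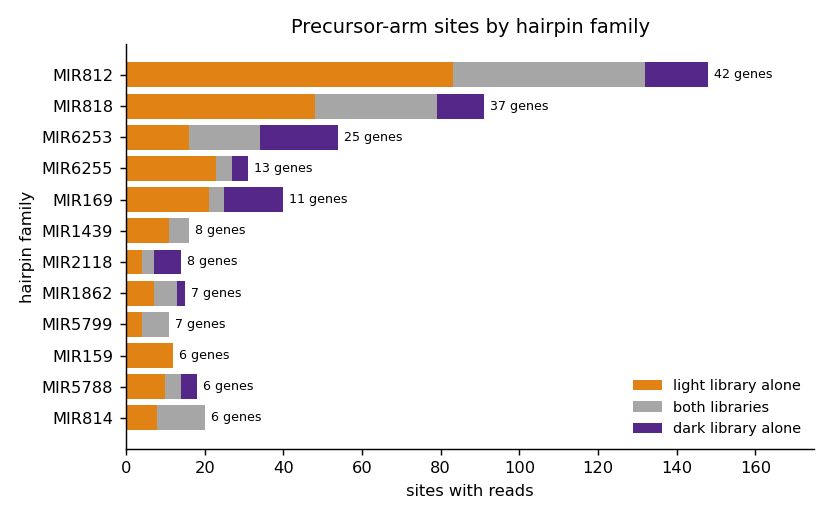
Sites with reads for the 12 hairpin families with most member genes. Each bar counts the sites of a family, split into those read in the light library alone, in both libraries and in the dark library alone, with the number of genes beside it. MIR812 had 148 sites and MIR818 had 91, and a site paired with arms of several families counts in each.

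Most of these sites had few reads. The median site had 2 raw reads in both libraries together, and the highest had 138. A single read was all that 207 sites had (37.4%, Wilson 95% interval 33.4 to 41.5), against 36.2% (33.8 to 38.7) of the other 1510 sites and 24.6% (21.6 to 27.8) of the 725 sites with a mature miRNA. Fewer than 5 reads stood at 389 sites (70.2%), against 70.1% of the other sites, and at least 10 reads at 54. The members held 4.77% of the site signal in the light library and 5.17% in the dark library, measured as TPB, the authors' reads scaled to the library total. The Wilson intervals treat sites as separate although versions of a transcript share reads, so they are too narrow, and all intervals here cover counting error only.

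The light library was the deeper. Its read total, taken from the TPB scale, was 34051452, against 15422946 in the dark library, a ratio of 2.21. One unshared read was therefore worth 29.4 TPB in the light library and 64.8 in the dark library. Reads were present at 457 member sites in the light library and at 259 in the dark library, with 162 (29.2%) in both. The light library alone had reads at 295 sites (53.2%, 49.1 to 57.4), against 46.0% (43.5 to 48.5) of the other sites. The dark library alone had 97 (17.5%), against 18.9% of the other sites. Among sites with 5 reads or more, 27.3% (21.1 to 34.5) of the members were read in the light library alone. The part of depth in these shares was not tested.

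**Figure D2:**
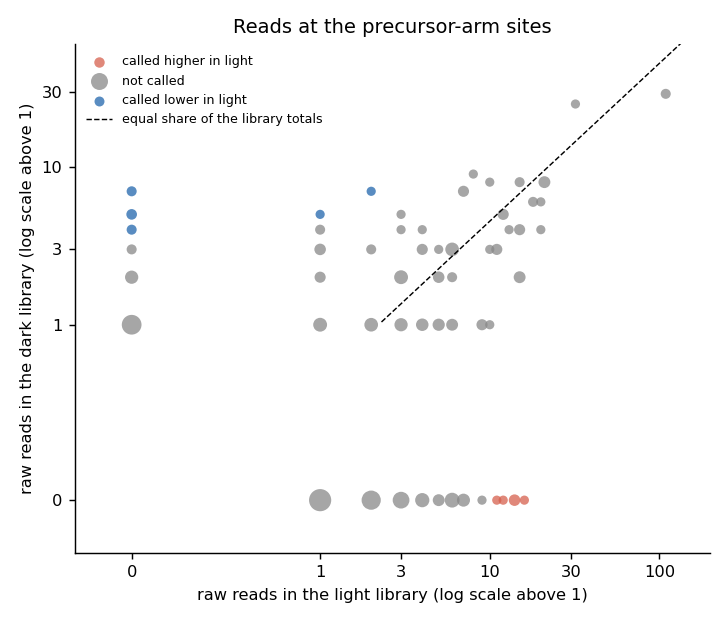
Raw reads at each of the 554 member sites in the light library (horizontal) and the dark library (vertical), on axes that are linear below 1 and logarithmic above. Larger circles stand for more sites at the same pair of values, colours mark the calls, and the dashed line marks equal shares of the library totals. All the sites called higher in light lie at 0 dark reads, and 7 of those called lower at 0 light reads.

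Few members were the highest cut of their transcript. The degradome category is the authors' grade of a position, by common usage 0 where a position alone is the highest of its transcript and 1 where it shares that rank, with 2 and 3 below them and 4 for 1 read. Category 0 was reached in at least 1 library by 10 members, or 1.81% (0.983 to 3.29), where 6.73% of all 2064 sites reached it. The share was 8.54% (7.24 to 10.1) of the other sites and 17.0% (14.4 to 19.9) of the sites with a mature miRNA. The 10 sites came from 4 genes. In the light library 7 of 457 member sites (1.53%) were in category 0, 266 (58.2%) in category 2 and 156 (34.1%) in category 4. In the dark library 3 of 259 (1.16%) were in category 0, 106 (40.9%) in category 2 and 141 (54.4%) in category 4. Category 4 depends on depth by its definition. Among members with 5 reads or more 5.45% reached category 0. The authors' lowest p-value for a pair was under 0.05 at 12 members, or 2.17%, where 6.78% of all sites passed, and it was above 0.9 at 385 members (69.5%), against 66.5% of the other sites.

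**Figure D3:**
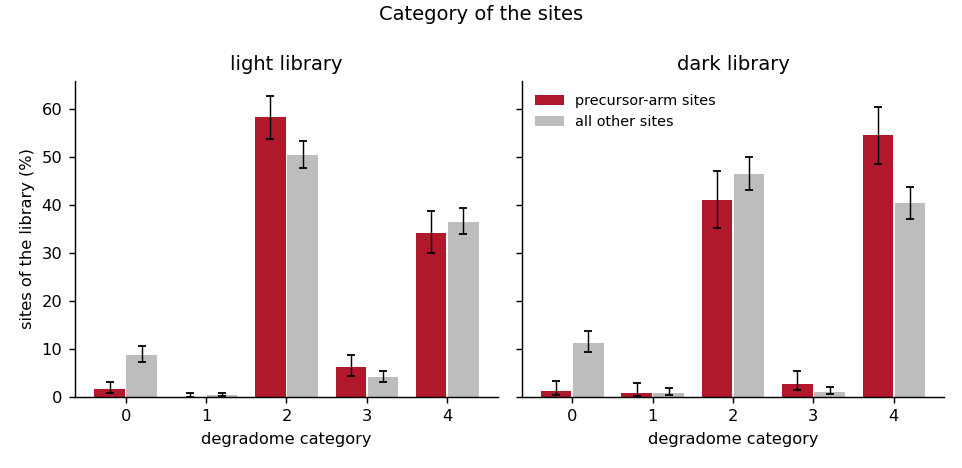
Share of sites in each degradome category in the light library (left) and the dark library (right), for the precursor-arm sites (red) and all other sites (grey). Bars are percent of the sites with reads in that library, with Wilson 95% intervals. Category 0 held 1.53% and 1.16% of the members in the light and the dark library, against 8.74% and 11.3% of the other sites.

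The category 0 sites are described first. Transcript ZS03t0087400-02, which has no symbol in the deposited table, was in category 0 in the light library and category 2 in the dark library at position 1258. It had 109 raw reads in light and 29 in dark and paired with the MIR5799 and MIR818f p3 arms at a score of 2. Its light over dark ratio was 1.70 (95% counting interval 1.12 to 2.66), above 1 but under the 2-fold required for a call. Under a scaling by the summed reads of shared sites the ratio was 1.26 (0.827 to 1.96), an interval that includes 1. The same counts of 109 and 29 also stood at position 1270 of ZS05t0477100-01, with the symbol At3g47300. The authors divided the reads of each by 2 matching places, giving 54.5 normalized reads in light and 14.5 in dark, so these may be the same reads, and their gene of origin cannot be told apart.

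The remaining category 0 sites had between 3 and 7 reads in the library concerned. ZS03t0630600-01, without a symbol, had 0 light and 7 dark reads at position 2161, opposite the MIR818f p3 arm. It was in category 0 in the dark library, with an authors' p-value of 0.0264. CRK6, a cysteine-rich receptor-like kinase by its symbol, had 6 light and 0 dark reads at position 4103, opposite the MIR1442 p5 arm. It was in category 0 in light and held 5 of the 10 sites, as 5 transcript versions of the same cut. ZS11t0095500-01, without a symbol, had 1 light and 3 dark reads at position 987 (category 0 in dark) and 5 light and 2 dark reads at position 988 (category 0 in light). Neither position was called, with ratios of 0.151 (0.00288 to 1.88) and 1.13 (0.185 to 11.9), so the difference in rank between the libraries rests on few reads. Both positions pair with MIR812 p5 arms, and their authors' p-values were 0.00514 in dark and 0.00532 in light. Category 1 was found in the dark library alone, in 2 genes. SAP18 (ZS01g0671400), 1 of 3 member genes with this symbol, which stands for a subunit of a histone deacetylase complex, had 0 light and 5 dark reads at position 852. SP1 had 7 light and 7 dark reads at position 1332, opposite the MIR5788 p3 arm, a ratio of 0.453 (0.136 to 1.51).

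The abundance of each cut was then set between the libraries as light over dark TPB. The log2 fold change that the authors deposited runs the other way, dark over light. A site or gene was called if it differed at least 2-fold and if the Clopper-Pearson 95% interval excluded 1. The interval came from raw reads scaled by the library totals. Where both libraries had reads, it was also multiplied by the ratio of normalized reads over the ratio of raw reads. It is exact only where these ratios agree. Of the 554 member sites 8 (1.44%) were called higher in light and 9 (1.62%) lower, where 2.52% and 2.37% of all sites were called. Of the 204 member genes 6 (2.94%) were called higher and 6 (2.94%) lower, where 3.28% and 2.31% of all genes were called. These shares are near the background and single out no direction. Reads in both libraries were present for 61 member genes, with a median ratio of 0.906, 29 being above 1 and 32 below, against a median of 0.883 over 255 of all genes.

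The higher calls rested on the absence of dark reads. All 8 sites called higher had 0 dark reads, had 11 to 16 light reads, and came from 4 genes. ZS12t0097300-01, without a symbol, had 16 light and 0 dark reads at position 416, opposite the MIR7694 p5 arm. Against a floor of 3 reads set for the dark library this was 2.42-fold higher in light, and its counting interval started at 1.75. RBM25, which in mammals regulates splicing, had 14 light and 0 dark reads opposite the MIR1428e p5 arm. Against the floor this was 2.11-fold higher, and the counting interval started below 2-fold. The 5 transcript versions of RBM25 gave 5 of the 8 sites. The arms at these sites were the following, with the seed in capitals.
osa-MIR7694-p5_2ss14AG19AT: tTTGTCCCaaaatgtagctac
osa-MIR1428e-p5_1ss20CT: cGCTTGGCgaattcacaggtcc
ZS01t0235500-01, described as a caffeoylshikimate esterase-like protein, an enzyme of lignin synthesis, had 12 light and 0 dark reads at position 1483. At4g27270 (ZS01t0643700-02) had 11 light and 0 dark reads at position 22. Those light reads matched more than 1 place, giving 4.05 normalized reads. Both sites pair with MIR812 p5 arms. They stood 1.81-fold and 1.66-fold higher against the floor (intervals from 1.26 and 1.14) and so do not reach 2-fold against it. Both calls were lost when the libraries were scaled by the summed reads of shared sites, with intervals from 0.928 and from 0.838.

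At the level of genes, the reads of a gene's member sites were summed. Sites of MIR812 arms, the largest family, stood in 4 of the 6 higher genes, 1 of the 6 lower genes and 42 of all 204 member genes. MIR818 arms stood in 3 higher and 3 lower genes, among 37. ZS01g0235500 had 17 light and 0 dark reads, and At4g27270 (ZS01g0643700) had 14 and 0. Against the floor these genes stood 2.57-fold and 2.11-fold higher, and both counting intervals started below 2-fold. ZS11g0552900, without a symbol, had 38 light and 8 dark reads, a ratio of 2.20 (1.01 to 5.45), and was the only higher gene with reads in both libraries. Its sites lay between positions 941 and 1056 and paired with MIR6253, MIR812 and MIR818 arms. Each of its reads was shared among several places, and with raw reads alone the gene was not called.

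The lower calls rested on few reads. The 9 sites called lower had 4 to 9 reads in all, came from 6 genes, and 7 of them had 0 light reads. ZS03t0630600-01 at position 2161, with 0 light and 7 dark reads, stood at 0.194 times its dark level when the light library was set to the floor. Its counting interval reached 0.314. SAP18 (ZS01g0671400), with 0 and 5 reads, stood at 0.272 times against the floor, with an interval up to 0.494. So did position 1448 of At1g71691 (ZS05t0430300-01), opposite the MIR816 p3 arm, also with 0 and 5. At1g71691 as a gene had 3 light and 7 dark reads, a ratio of 0.194 (0.0324 to 0.850). The others were named after their values were seen. They were SDP6, described as a glycerol-3-phosphate dehydrogenase, with 0 light and 4 dark reads, Os02g0755200, described as polyamine oxidase 3, with 1 and 5, and ZS03g0678700 with 2 and 7.

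The members with most reads were mostly not called. In ZS05t0477100-01 the neighbouring position 1272, opposite osa-MIR812r-p3, had 32 light and 25 dark reads, a ratio of 0.580 (0.333 to 1.02). The ratio thus lay on the other side of 1 from that at position 1270, 2 bases away, and neither was called. NPY2 (ZS12t0457300-01), whose Arabidopsis namesake acts in auxin-dependent organ formation, had 21 light and 8 dark reads at position 3449, a ratio of 1.19 (0.506 to 3.10). At its position 3441, opposite a MIR1862 p5 arm, it had 15 and 2, a ratio of 3.40 (0.790 to 30.6). GLCAK1 (ZS11t0125000-01), a glucuronokinase by its symbol and so an enzyme that feeds cell wall sugar synthesis, had 20 light and 4 dark reads at position 1472, a ratio of 2.26 (0.759 to 9.11). At position 1598, opposite osa-MIR812r-p5_1ss2CT with perfect pairing, it had 10 light and 8 dark reads, a ratio of 0.566 (0.201 to 1.65). Of these sites only position 1270 had an interval that excluded 1 (1.12 to 2.66), and its ratio was under 2-fold. Under a scaling by the summed reads of shared sites that interval was 0.827 to 1.96. The wide intervals of the other sites all include 1.

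The other well-read sites were not called either. DNAJC17 (ZS03t0041700-01), whose mammalian namesake is a J-domain co-chaperone, had 18 light and 6 dark reads at position 922, opposite MIR169 p3 arms, a ratio of 1.36 (0.517 to 4.18). CNBF2260 (ZS01t0075900-01) had 15 light and 4 dark reads at position 1139, opposite a MIR6253 p3 arm, a ratio of 1.70 (0.541 to 7.03). ZS01t0492000-01 had 15 light and 8 dark reads at position 3135, opposite the MIR2880 p5 arm, a ratio of 0.849 (0.338 to 2.31). None of these intervals excluded 1. ZS01t0780900-01 had 13 light and 4 dark reads opposite the MIR821a p3 arm, and MFP, named for a multifunctional protein of fatty acid breakdown, had 11 and 3 opposite the MIR6255 p3 arm. RBL19 and At3g61260 each had 12 light and 5 dark reads, at a ratio of 1.09 (0.356 to 3.94). With the sum of reads at shared sites as the size factor, both stood at 0.802 and position 3449 of NPY2 at 0.877, on the other side of 1. Os02g0224100 (ZS02t0133900-01) had 8 light and 9 dark reads at position 1681, opposite MIR1439 p5 arms, a ratio of 0.403 (0.135 to 1.18). It lay below 1 but was not called.

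By family, the median ratio over genes with reads in both libraries was 1.36 for MIR812 (18 genes), 1.25 for MIR818 (18 genes), 1.66 for MIR6255 (1 gene) and 1.36 for MIR169 (3 genes). It was 0.815 for MIR6253 (7 genes) and 0.428 for MIR1439 (4 genes). Under a scaling by the summed reads of shared sites, MIR812 and MIR169 stood at 1.00 and MIR818 at 0.922, so the side of 1 on which these families lie depends on the scaling. MIR6255 kept above 1 (1.22), and MIR6253 (0.601) and MIR1439 (0.316) below, under that scaling. MIR159, a family kept across plants, had 12 arm sites in 6 genes, all with 0 dark reads and 1 to 7 light reads per gene. Over all members 53.2% of sites were read in the deeper light library alone, and none of the 6 genes was called. MIR397 p5 arms had sites in the laccase genes LAC12 (2 copies) and LAC8, singled out after their values were seen. Laccases polymerise lignin and are known targets of miR397 in rice. Both MIR397 arms shared at most 8 bases in a row with a listed mature miRNA. Overlap with mature sequences that were not listed was not tested, so these arms may overlap the mature strand. The 2 arm sequences at these sites were the following, with the seed in capitals.
osa-MIR397a-p5: tTGAGTGCagcgttgatgaac
osa-MIR397b-p5: tTGAGTGCagcgttgatgaacc
Both LAC12 copies listed 5 light and 0 dark reads, at a score of 1, and LAC8 had 3 light and 0 dark reads, at a score of 3. The LAC12 reads were divided by 2 matching places, giving 2.5 normalized reads for each copy, so these may be the same reads. None of the 3 was called or in category 0.

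The next question was how often a listed pairing of an arm with a transcript had reads at all. Of 8918 listed arm pairs 1101 had reads (12.3%, 11.7 to 13.0). This compares with 22.0% (21.0 to 23.1) of 6290 mature miRNA pairs and 9.26% (8.03 to 10.6) of 1890 pairs of predicted small RNAs. These counts include arm pairs at sites that also held a mature miRNA, and the shares for 8828 arm pairs without the symbols of the rule were 12.2% (11.5 to 12.9). Among the arms detection did not rise steadily with better pairing. With those symbols left out, reads stood at 11.4% (8.04 to 15.9) of the perfectly paired, 26.6% (18.7 to 36.3) of those at a score of 0.5, 11.8% (9.06 to 15.2) of those at 1 and 8.89% (8.05 to 9.82) of the pairs at a score of 4. Mature miRNAs had reads at 45.1% (38.1 to 52.3) of pairs at a score of 1, 26.7% at 1.5, 41.6% at 2, 28.1% at 2.5, 38.8% at 3 and 16.4% (15.2 to 17.7) at 4, so they did not rise steadily either. Perfectly paired mature miRNAs, of which 82 pairs were listed, had reads at 9 (5.88% to 19.6%), and 2 of 21 pairs at a score of 0.5 did. Apart from a score of 0.5, arms had their highest share of pairs with reads at a score of 3, at 23.7% (21.6 to 26.0). There MIR169 arms gave 238 of the 342 pairs with reads. These came from 3 of 19 listed genes, namely REFA1, At5g27450 and At2g40090, with 5 or 6 arm names on up to 30 transcript versions each. REFA1, which is not among the member genes, gave 168 of the 238 pairs. The pairs at this score thus count a few genes many times.

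**Figure D4:**
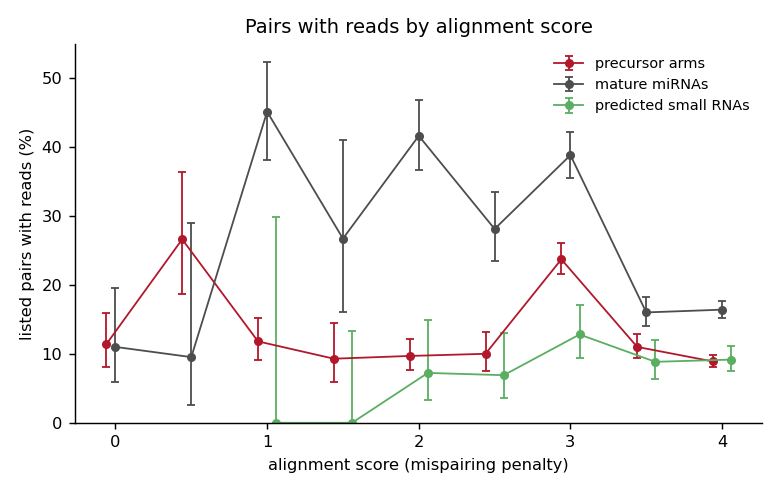
Percent of listed pairings between small RNAs and transcripts that had reads in at least 1 library, by alignment score from 0 (perfect) to 4. Precursor arms (red, without the symbols of the rule), mature miRNAs (dark grey) and predicted small RNAs (green) are shown with Wilson 95% intervals. Arms stood at 11.4% at a score of 0 and 8.89% at 4, and at 23.7% at 3, where 238 of 342 pairs with reads were of MIR169 arms.

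Where a pair had reads, the cut lay opposite the middle of the arm. It was opposite base 10, counted from the 5′ end of the small RNA, in 822 of 850 member pairs (96.7%), base 9 in 16 and base 11 in 12. Among the other pairs base 10 took 90.3%. No listed pair with reads was cut elsewhere, so the position is no test of cleavage by the arm.

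Several of the arms are near reverse complements of each other. The letters GTCAAAC, or GTTTGAC on the other strand, were found in 10 of the 77 arm sequences (13.0%), in 14 of all 599 listed small RNA sequences (2.34%) and in 1 of 268 listed mature sequences (0.373%). The motif was chosen after the sequences were seen. In the printed lines it can be read in the MIR812 and MIR818 arms other than osa-MIR818e-p3_1ss16AG, as GTCAAAC in p3 arms and GTTTGAC in p5 arms. Set against each other, osa-MIR812r-p5_1ss2CT and osa-MIR812r-p3 paired at 20 of 22 bases (90.9%), and osa-MIR818e-p5_1ss11CT and osa-MIR818f-p3_1ss15TC at 19 of 20. Sites of arms with the motif lay in 39 member genes (19.1%).

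Transcripts that paired with one such arm often paired with the other at a fixed distance. A listed pairing of either kind was held by 96 member transcripts of 58 genes, and pairings of both kinds by 46 transcripts of 27 genes. In 26 of these 27 genes the stretch that pairs with the GTTTGAC arm began 100 to 150 bases after the one that pairs with the GTCAAAC arm, at a median of 126 bases (106 to 128). In the remaining gene the distance was 1007 bases. Other listed transcripts held both kinds in 20 genes, of which 16 had the same spacing, at a median of 125.5 bases (112 to 128). The spacing is therefore not particular to the transcripts with member sites. No annotation of repeats was used here.

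Reads fell on the 2 ends of this spacing unequally. Of the 26 genes 20 had member reads at the first end, within 5 bases before to 35 bases after its start, and 9 at the second end, and 5 of these genes had both. Reads between the ends were found in 3 genes. In ZS05t0477100-01 the first end held 142 light and 54 dark reads and the second 14 light and 1 dark reads. The reads at each of these first-end positions matched 2 places, and those at the second-end positions 1. Position 1270 held 109 light and 29 dark of the first-end reads. The same counts stood at the first end of ZS03t0087400-02, another of the 20 genes, so these may be the same reads. In GLCAK1 the first end held 21 light and 5 dark reads and the second 13 light and 10 dark reads. In GLCAK1 the first end was thus the higher in light and the second in dark, while in ZS05t0477100-01 the first was higher in both. Gpn2 (ZS02t0426100-01), named for a GTPase but described as a heat shock protein, had 0 light and 2 dark reads at the first end and 6 light and 3 dark reads at the second. Ric1 (ZS02t0672700-01), singled out after its values were seen, had 4 light and 3 dark reads at the first end, 1 light read between and none at the second. How many small RNAs of each arm the listing tried at each end differs, and its part in this imbalance was not tested.

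**Figure D5:**
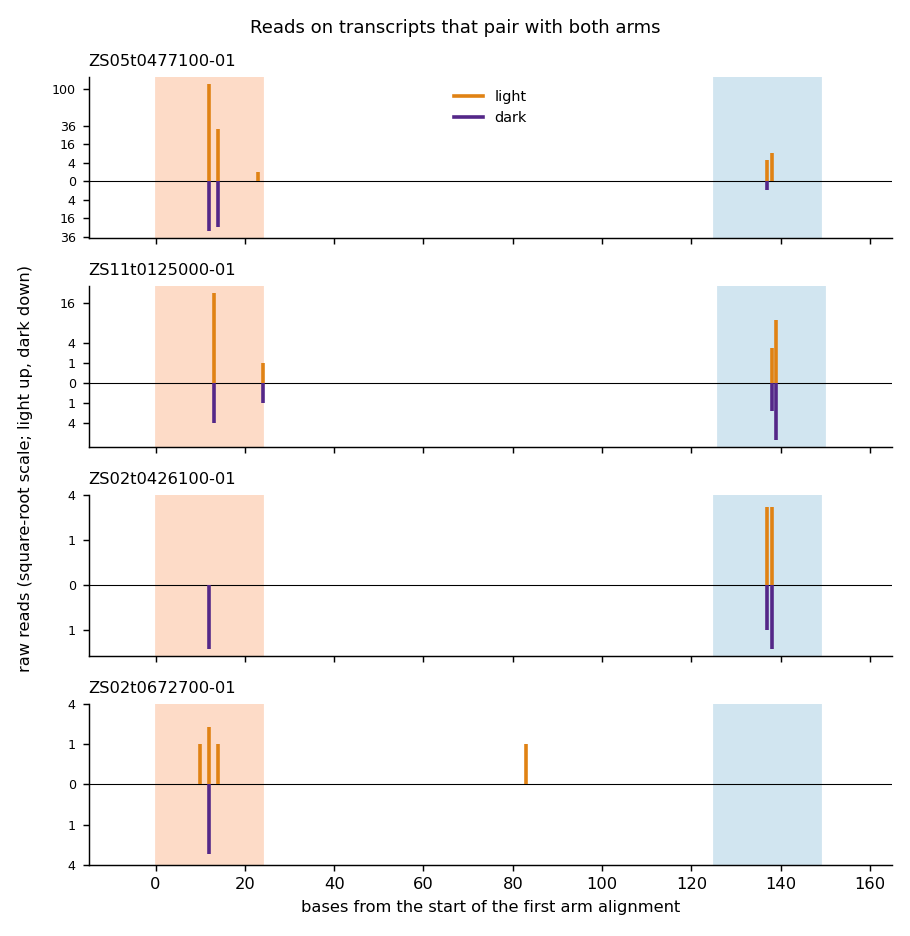
Raw reads at member sites along 4 transcripts that pair with both kinds of arm, by distance in bases from the start of the first arm alignment. Orange lines up are light reads and purple lines down are dark reads, on a square-root scale that differs between panels. Shaded stretches mark the first and the second pairing, and ZS05t0477100-01 had 142 light reads at the first against 14 at the second. The 142 stood at positions whose reads matched 2 places, and the 14 at positions whose reads matched 1.

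Some transcripts held several member sites. A single member site was held by 343 of the 418 transcripts and 2 or more by 75, up to 6 on a transcript, and on 45 transcripts 2 member sites lay at most 3 bases apart. Reads at most member sites matched more than 1 place, at 453 of 554 sites (81.8%), against 78.3% of the other sites. The places can be transcript versions of a gene, as for RBM25 with 5 places and 5 versions, or other genes.

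The genes cut at these sites belonged to no single class. Lists were made from words in the deposited descriptions, several of which disagree with the symbols. Zinc finger or transcription factor words were held by 7 member genes (3.43%), against 12.6% of all genes with a site, but the rule leaves out several transcription factor symbols. None of the 7 was called. Oxidoreductase words were held by 11 (5.39%, against 3.40%), with none called higher and 2 lower. Over all 28 genes of that list 1 was called higher and 2 lower, where 2.31% of all genes with a site were called lower. Ubiquitin or F-box words were held by 9 and cell wall words by 8, with none called in either direction. Histone or chromatin words were held by 5, of which 1 was called lower, and over all 21 genes of that list 1 was called lower. A further 10 lists had 0 to 6 member genes each and no call, and no member gene had a transposon word. These are 15 of the 16 lists made.

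Most leading genes of these lists were read in both libraries. PKL, a chromatin remodeller that in Arabidopsis represses embryonic genes, had 3 light and 1 dark reads opposite a MIR169 p3 arm. TIC32 (ZS11t0074200-01), described as protochlorophyllide oxidoreductase C, an enzyme of chlorophyll synthesis, had 3 light and 4 dark reads opposite the MIR171a p5 arm, a ratio of 0.340 (0.0498 to 2.01). SUF4, whose Arabidopsis namesake is a zinc finger protein of flowering control, had 3 light and 5 dark reads opposite the MIR167f p3 arm, a ratio of 0.272 (0.0422 to 1.40). These 3 are paired with arms of families kept across plants, and none was called. UBA2B, named for an RNA-binding protein, had 9 light and 5 dark reads in all opposite MIR6253 p3 arms. At1g17220, described as translation initiation factor eIF5B, had 5 light and 3 dark reads opposite the same family. DTX46, named for a MATE-type transporter, had 9 light and 2 dark reads in all, a ratio of 2.04 (0.422 to 19.4). Of these, 4 light and 0 dark reads stood at a perfectly paired MIR1439 site. OsI_019561 (ZS05t0472100-01) had 10 light and 1 dark reads opposite MIR169 p3 arms, a ratio of 4.53 (0.644 to 197), and was not called. At1g80640, described as a PBS1-like protein kinase, had 3 light and 0 dark reads at position 1934 and 0 light and 1 dark reads 2 bases on.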

How the data were processed

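Per the labels' protocols, total RNA from mesocotyls was sequenced on a HiSeq instrument, 1 degradome library per condition. The aligner, target finder, build and annotation were not given in the sources used here. Raw counts of reads at each cleavage position are those the authors deposited, a blank being read as 0. The authors' normalized reads and TPB are signals: raw reads divided by the number of matching places, and those times 1 constant per library, whose inverse gave the library totals. The deposited alignment score runs from 0 to 4 and the deposited degradome category, also a score, from 0 to 4. The authors' deposited p-value for a pair was used only to count sites. The authors' deposited log2 fold change, dark over light, was not used for any value. Some deposited columns name a dark sample of 1 h; they were assigned to the dark library because multiplying them by 1 constant gives the D_5d TPB.

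Pairs were collapsed to sites, with the lowest category, p-value and score among their pairs. For genes, TPB was summed over member sites and raw reads over positions of the transcript version with most. Ratios, Clopper-Pearson and Wilson 95% intervals and a floor of 3 reads were computed in Python 3.11.15 with pandas 2.3.3, NumPy 2.4.6 and SciPy 1.17.1, and figures with matplotlib 3.10.9. The interval code was tested on simulated data. Reads of PCR products without molecular identifiers are not separate molecules, so intervals cover counting error only. The members, lists and motif were chosen with earlier results of these data known. Genes were named when in category 0 or 1, among the 15 member genes with most reads at 1 site, called with at least 10 reads (up to 10 in each direction), leading in reads within the 3 largest families (2 genes each), or leading an annotation list. This gave 33 genes. There were 16 word lists, and 1 gene with its list is not reported here. Gene identifiers and symbols are those of the deposited table, and 0 member identifiers matched the RefSeq gene table. An empty line (1) of the first sheet gave no value, and 20 columns of values per sample in 2 other sheets were not used. Alternatives varied the scaling, the reads used, the fold threshold, the minimum of reads, the score and the site rule.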

Additional observations from a re-analysis of the deposited data

How the results depend on the processing

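No paired analysis was possible because each condition has 1 library. With the ratio median of the 692 shared sites as the size factor (0.883, or -0.18 on the log2 scale), or with raw reads, each of the 33 named sites kept its side of 1 and of the call. With the sum of shared sites (1.36, or 0.44 on the log2 scale) the calls of ZS01t0235500-01 at 1483 and ZS01t0643700-02 at 22 were lost, and ZS02t0133900-01 at 1681 was called lower, at 0.297. Of the 24 named sites with reads in both libraries 4, none of them called, crossed to below 1 with it, among them ZS11t0095500-01 at 988, at 0.835. That scaling raised the lower calls to 15 sites and 11 genes. With scores of at most 3 there were 2 higher sites, 4 lower sites and 3 lower genes, from fewer members (244 sites and 87 genes). With any precursor arm at the site (612 sites) 19 were lower. With 5 reads or more, category 0 held 5.45% of sites and light alone 27.3%. The share of listed arm pairs with reads was 16.5% at scores of at most 3 and 9.49% per transcript and position. Requiring 2-fold against the floor, a setting chosen after seeing the data, left 6 higher and 9 lower sites and 5 higher and 6 lower genes. Other counts stayed within 1.5 times. With a median of 2 reads a site, depth limits most ratios.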

Other observations

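One arm sequence was a simple repeat. It carries the prefix of a species other than rice and is printed 5′ to 3′ with its seed in capitals.
stu-MIR8005a-p3_1ss12AG: tAGGGTTTagggtttagggt
It holds 2 copies of TTTAGGG, the unit of plant telomere repeats. Its 7 sites, in IBI1 and Rexo4, had 1 light and 0 dark reads for each gene.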
